A study of Homo sapiens with 15 samples.

Results

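The cornified envelope genes followed here are 10 genes of the 61552 in the deposited counts table, namely SPRR1A, SPRR1B, SPRR2A, SPRR2D, SPRR3, IVL, TGM1, CNFN, EVPL and PPL. They were chosen by symbol and matched to the Ensembl gene IDs of the table through GENCODE 44, and all 10 were found. The RNA came from MDA-MB-468, an established human breast cancer cell line, in 15 libraries with 3 replicates in each of 5 groups. In the drug experiment, 12 h without serum preceded 12 h with EGF at 10 ng/mL, given alone (EGF), with 10 μM of cSNX1.3, a peptide that keeps EGFR from binding Sorting Nexin 1 (cSNX), or with 15 μM of the EGFR kinase inhibitor erlotinib (ERL). In the line experiment, endogenous EGFR was knocked down by an IPTG-inducible lentiviral shRNA, and an EGFR-GFP that was wildtype (shEGFR-WT) or mutated in its nuclear localization sequence (shEGFR-NLS) was transfected. Both lines received EGF, at a dose not given in the sources used here. Whether each line was a pool or a single clone, and whether replicates came from separate cultures, is not given either, so the p-values measure only the spread between these libraries, which may be technical. No library without EGF was analysed here.

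The cornified envelope is the protein shell that replaces the plasma membrane of keratinocytes as they finish differentiation in stratified squamous epithelia. Envoplakin (EVPL) and periplakin (PPL) are plakins that form a first layer under the membrane, where involucrin (IVL) is laid down. Transglutaminase 1 (TGM1) then joins proteins by isopeptide bonds, and the small proline-rich proteins (the SPRR genes) serve as cross-bridges between them. Cornifelin (CNFN) is a further constituent of the envelope. Many of the precursors are encoded side by side in the epidermal differentiation complex on chromosome 1.

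In GRCh38 the 6 members of that complex lie on chromosome 1 in the order IVL (152908546 to 152911886), SPRR1A (152984081 to 152985814), SPRR3 (153001747 to 153003856), SPRR1B (153031203 to 153032900), SPRR2D (153039732 to 153041931) and SPRR2A (153056120 to 153057512). Each of these genes has 2 exons, and the gaps between neighbours were 72.2, 15.9, 27.3, 6.83 and 14.2 kb. SPRR2D and SPRR2A are on the reverse strand and the other 4 on the forward strand. The other members are on other chromosomes and all on the reverse strand, TGM1 on chromosome 14 (24249114 to 24264432, 15 exons), CNFN on chromosome 19 (42387019 to 42390297, 4 exons), EVPL on chromosome 17 (76004502 to 76027306, 22 exons) and PPL on chromosome 16 (4882507 to 4960741, 22 exons). Genes on the opposite strand overlap IVL (the noncoding ENSG00000289062, 1 to 10 counts per library) and EVPL (TEN1-CDK3, 1 to 15 counts), and as strand was not used their reads cannot be told apart.

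The promoter letters are shown for the members of the complex that were tested in both experiments and, as a member outside the complex, for CNFN. They come from RefSeq (GRCh38.p14) and span the bases 250 to 6 before the gene start, read 5′ to 3′ on the gene's strand. Capitals mark TGANTCA, the core letters bound by AP-1 factors, GGAAGT, an ETS core, both searched on both strands, and TATAAA, searched on the gene's strand only.
SPRR1A promoter, chr1:152983831-152984075, forward strand: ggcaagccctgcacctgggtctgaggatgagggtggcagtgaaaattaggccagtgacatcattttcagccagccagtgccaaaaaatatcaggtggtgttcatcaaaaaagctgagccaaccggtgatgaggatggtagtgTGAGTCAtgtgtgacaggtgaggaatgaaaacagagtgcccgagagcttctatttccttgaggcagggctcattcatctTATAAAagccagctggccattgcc
SPRR1B promoter, chr1:153030953-153031197, forward strand: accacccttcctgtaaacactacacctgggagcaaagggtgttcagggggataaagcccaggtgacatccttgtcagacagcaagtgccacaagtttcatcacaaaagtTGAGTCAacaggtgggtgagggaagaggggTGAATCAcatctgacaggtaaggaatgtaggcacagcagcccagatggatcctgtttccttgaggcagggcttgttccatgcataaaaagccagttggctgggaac
SPRR3 promoter, chr1:153001499-153001743, forward strand: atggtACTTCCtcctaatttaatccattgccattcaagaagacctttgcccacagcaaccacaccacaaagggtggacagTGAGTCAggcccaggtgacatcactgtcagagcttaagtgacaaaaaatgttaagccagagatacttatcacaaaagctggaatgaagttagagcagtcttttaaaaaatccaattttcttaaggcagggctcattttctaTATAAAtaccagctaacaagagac
IVL promoter, chr1:152908296-152908540, forward strand: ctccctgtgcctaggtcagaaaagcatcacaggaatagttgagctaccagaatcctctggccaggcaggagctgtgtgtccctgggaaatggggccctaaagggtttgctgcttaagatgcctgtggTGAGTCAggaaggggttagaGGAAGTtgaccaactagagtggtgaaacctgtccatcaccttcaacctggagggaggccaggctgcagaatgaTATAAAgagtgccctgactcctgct
CNFN promoter, chr19:42390303-42390547, reverse strand: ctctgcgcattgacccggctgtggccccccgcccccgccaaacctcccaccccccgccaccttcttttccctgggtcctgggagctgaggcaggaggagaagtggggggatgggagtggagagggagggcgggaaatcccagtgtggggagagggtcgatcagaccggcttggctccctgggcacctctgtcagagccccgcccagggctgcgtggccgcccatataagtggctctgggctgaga

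The AP-1 letters were in 5 of the 6 member promoters that the table holds, those of SPRR1A, SPRR1B, SPRR2A, SPRR3 and IVL, and in 6.51% of 35116 promoters of the same length. SPRR1B had 2 matches, TGAGTCA and TGAATCA, where 0.39% of all promoters had 2 or more, and SPRR1A had 1, from 108 to 102 bases before the start. The ETS letters were in the promoters of SPRR2A, SPRR3 and IVL and in 18.8% of all promoters. The TATAAA letters were in those of SPRR1A, SPRR2A, SPRR3 and IVL, beginning 29 or 30 bases before the start, and in 6.76% of all promoters. CNFN had none of the 3 motifs in this window. These are matches of letters, and binding was not measured.

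The libraries held 22915676 to 35900649 counts of read pairs, and every pair of replicates differed by more than sampling noise (chi-square per degree of freedom 2.60 to 22.3). The epithelial markers were high in every library, with EPCAM at 334 to 490 CPM (counts scaled to a common library size by edgeR's TMM method, over all 15 libraries) and KRT5 at 1601 to 6108 CPM. Of 12 markers of immune, stromal, endothelial and fat cells, 5 had at most 3 counts in every library, with ADIPOQ at 0 in each, and PTPRC had at most 7. The endothelial markers were not absent, with 22 to 185 counts per library for PECAM1, 5 to 33 for CDH5 and 1 to 29 for VWF. The summed level of the 12 was 17.9 to 20.6 CPM in EGF, 22.6 to 23.9 in cSNX, 13.1 to 17.6 in ERL, 18.1 to 18.4 in shEGFR-WT and 15.4 to 17.2 in shEGFR-NLS, most of it COL1A1. Of the luminal receptor genes, PGR was at 0 in every library, ESR1 was at 2.79 to 8.41 CPM and ERBB2 at 24.2 to 109 CPM. EGFR, the gene that was knocked down and put back, had 4730 ± 360 CPM in EGF, 6139 ± 371 in cSNX and 4704 ± 246 in ERL, against 1339 ± 168 in shEGFR-WT and 1725 ± 33.6 in shEGFR-NLS (SD, n = 3 each). These counts add endogenous and introduced EGFR, and shEGFR-NLS had 1.29-fold more than shEGFR-WT (log2 fold change 0.37, standard error, or SE, 0.089, edgeR adjusted p = 0.00367). The part of this difference in the results of that comparison was not tested.

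Per length, the members together gave 53.7 CPM per kb of exon in EGF, 46.9 in cSNX, 43.5 in ERL, 187 in shEGFR-WT and 81.5 in shEGFR-NLS. The members that supplied this RNA differed between groups. EVPL held the largest share in EGF (31.1%) and cSNX (38.0%), CNFN and EVPL shared the lead in ERL (28.4% each), and SPRR1B was first in shEGFR-WT (40.3%) and shEGFR-NLS (31.6%), where IVL followed with 33.1% and 27.4%. SPRR1B supplied 14.7% in EGF, 10.7% in cSNX and 2.77% in ERL. TGM1 supplied 9.58% in EGF and 19.9% in ERL. The levels of the lines and of the drug libraries stand side by side here and were not tested against each other, because experiment and cell line cannot be told apart. As these are bulk samples, fewer cells of a kind and less RNA per cell cannot be told apart.

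**Figure D1:**
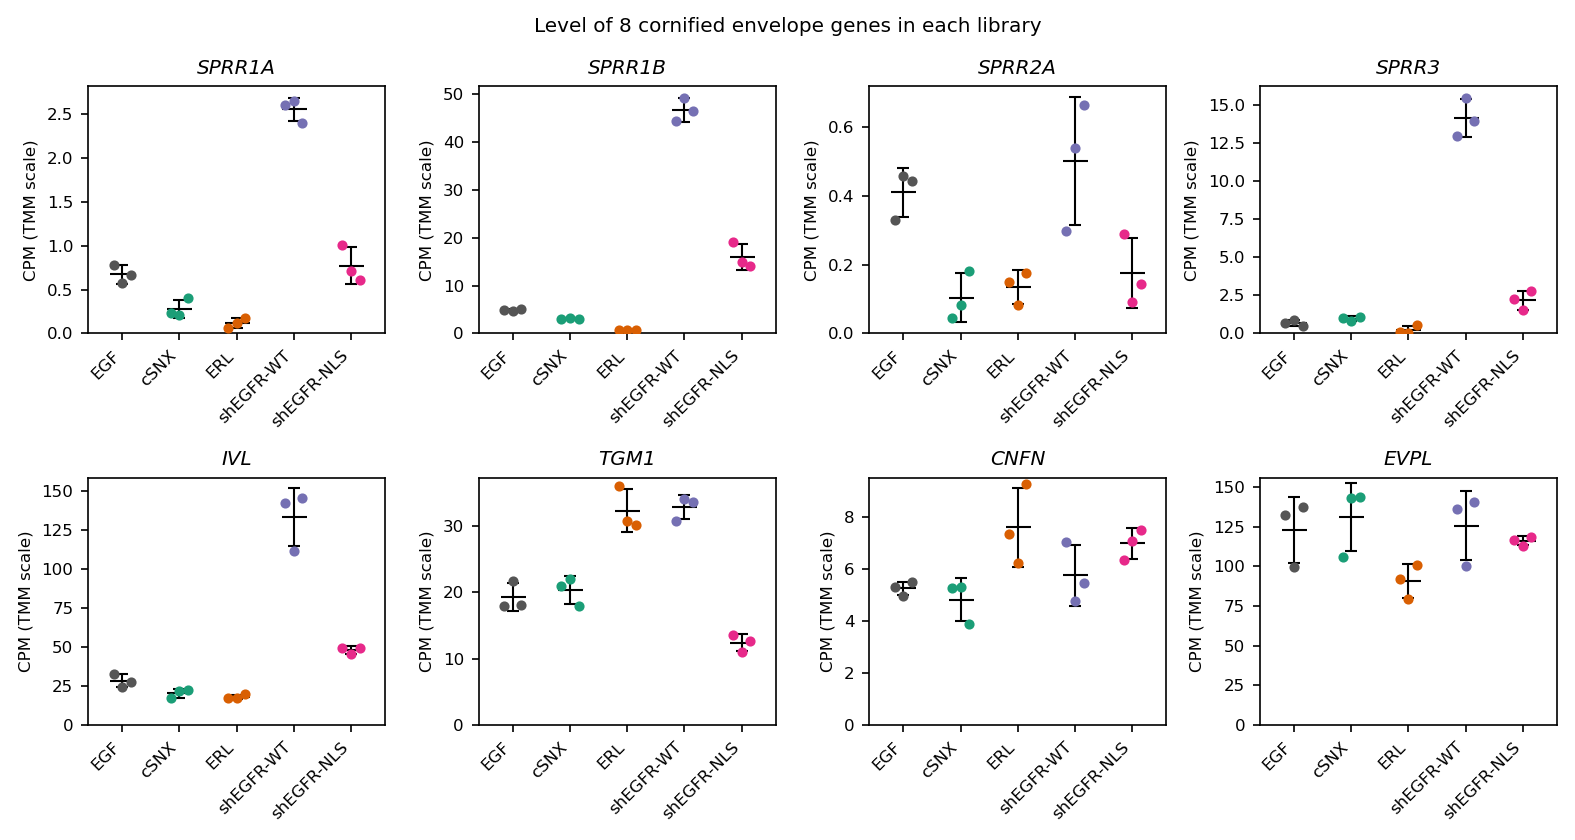
Level of 8 members in each library, in CPM on the TMM scale (y axis from 0, a separate scale for each gene) by group (x axis). Coloured points are the 3 libraries of a group, horizontal lines the mean and bars the SD; SPRR1A, SPRR1B, SPRR3 and IVL are highest in shEGFR-WT, TGM1 is high in both ERL and shEGFR-WT, and for CNFN each group overlaps the next in order of level.

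Of the 10 members, 7 had enough counts to be tested in each experiment, namely SPRR1A, SPRR1B, SPRR3, IVL, TGM1, CNFN and EVPL. SPRR2A and SPRR2D stayed under the filter on low counts in both experiments and PPL had no counts. In the drug experiment SPRR1A passed this filter only through EGF, its highest group there, so its comparisons with EGF are not independent of the filter. A gene was called where edgeR's quasi-likelihood test gave an adjusted p under 0.05, with adjustment by the Benjamini-Hochberg method over all genes tested. How many of all genes had groups that lay apart was not counted. Statements on whether groups overlapped therefore only describe the gene named.

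With erlotinib, the SPRR genes fell furthest, IVL and EVPL fell less, and TGM1 and CNFN rose. All 7 members tested were called, 5 lower and 2 higher, where 44.0% of all 15738 genes tested were called and 21.2% were called lower. The median log2 fold change of the 7 was -0.65, against 0.01 for all genes tested. It ran from -1.23 to -0.66 with 1 library left out, moving by over 1.5 times in the fits without any one cSNX library, EGF replicate 1 or ERL replicate 3, where 8 members passed the filter, and from -1.57 in DESeq2's test (9 members) to -0.41 with at least 10 counts in every library (5 members). The comparison sets kinase inhibition in the presence of EGF against EGF alone.

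SPRR1B, one of the cross-bridging proteins, had 4.89, 4.70 and 5.03 CPM in the EGF libraries and 0.682, 0.818 and 0.740 CPM in the ERL libraries. The groups lay far apart. SPRR1B fell 6.49-fold, a log2 fold change of -2.70 (SE 0.19, edgeR adjusted p = 2.39e-08). Its near relative SPRR1A had few counts, 19, 15 and 18 in EGF and 2, 3 and 5 in ERL, which is 0.780, 0.573 and 0.666 CPM against 0.0593, 0.123 and 0.176 CPM. Every ERL library was under every EGF library, and the log2 fold change was -2.47 (SE 0.50, edgeR adjusted p = 0.000835). As SPRR1A passed the filter only through EGF, the filter favoured a lower value. Of the 50-base words of SPRR1A and SPRR1B transcripts, 7.24% of SPRR1A's and 8.25% of SPRR1B's were found in the other gene. The counting may therefore have assigned a small part of their reads to neither or to the wrong one. SPRR3, the third small proline-rich gene tested, had 16, 23 and 14 counts in EGF and 4, 1 and 15 in ERL, or 0.657, 0.878 and 0.518 CPM against 0.119, 0.0409 and 0.529 CPM. The highest ERL library (replicate 3) lay within the EGF range, so the groups overlapped. Its log2 fold change of -1.53 (SE 0.55, edgeR adjusted p = 0.0330) lost the call when EGF replicate 1 (adjusted p = 0.0623), EGF replicate 2 (0.0849), ERL replicate 1 (0.137) or ERL replicate 2 (0.120) was left out of edgeR's fit. Without ERL replicate 3 the value was -2.93 and was called (edgeR, adjusted p = 0.00137).

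IVL, the scaffold protein, had 32.9, 24.6 and 27.7 CPM in EGF and 17.0, 17.3 and 19.7 CPM in ERL. The groups did not overlap, and IVL fell 1.56-fold (log2 fold change -0.65, SE 0.13, edgeR adjusted p = 0.000930). EVPL, the plakin that is laid down early, had 132, 99.5 and 138 CPM in EGF and 92.4, 79.7 and 101 CPM in ERL. The lowest EGF library, replicate 2, lay within the ERL range. The log2 fold change of EVPL was -0.43 (SE 0.14, edgeR adjusted p = 0.0246), and the call was lost without EGF replicate 1 (adjusted p = 0.0918), EGF replicate 3 (0.0993), ERL replicate 1 (0.0658) or ERL replicate 2 (0.115).

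Among the members, the enzyme TGM1 and the envelope constituent CNFN moved the other way from the SPRR genes, IVL and EVPL. TGM1 had 17.9, 21.6 and 18.1 CPM in EGF and 36.0, 30.8 and 30.1 CPM in ERL, so each ERL library was above each EGF library. It rose 1.69-fold, a log2 fold change of 0.76 (SE 0.11, edgeR adjusted p = 6.06e-05). CNFN, the envelope constituent encoded on chromosome 19, had 5.30, 4.96 and 5.47 CPM in EGF and 7.32, 6.22 and 9.24 CPM in ERL. These groups did not overlap either, and CNFN rose by 0.54 on the log2 scale (SE 0.17, edgeR adjusted p = 0.0162). Without ERL replicate 3, the highest library, the value was 0.38 and was not called (edgeR, adjusted p = 0.111).

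With cSNX1.3, SPRR1B and IVL fell, and the other 5 members tested were not called. The 2 called of 7 were both lower, where 6.07% of the 15738 genes tested were called and 2.69% were called lower. The median log2 fold change of the 7 was -0.13, against 0.00 for all genes. It ran from -0.38 to -0.09 with 1 library left out, moving by over 1.5 times in the fits without any one cSNX or ERL library or EGF replicate 1, where 8 members passed the filter, and reached -0.50 with no filter. This comparison sets the peptide with EGF against EGF alone and shares its EGF libraries with the erlotinib comparison.

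SPRR1B had 3.11, 3.13 and 3.10 CPM in the cSNX libraries, all under the lowest EGF library at 4.70 CPM. The log2 fold change was -0.64 (SE 0.16, edgeR adjusted p = 0.0262), a 1.56-fold fall. IVL had 17.0, 21.7 and 22.1 CPM, all under the lowest EGF library at 24.6 CPM, and fell by 0.48 on the log2 scale (SE 0.13, edgeR adjusted p = 0.0389). Both calls were close to the threshold. That of SPRR1B was lost without cSNX replicate 1 (edgeR, adjusted p = 0.0625), cSNX replicate 2 (0.0952), cSNX replicate 3 (0.0846), EGF replicate 1 (0.0962) or EGF replicate 3 (0.118), and with the replicate number as a block (0.0520). That of IVL was lost without cSNX replicate 1 (edgeR, adjusted p = 0.115), cSNX replicate 2 (0.0770), EGF replicate 1 (0.218), EGF replicate 3 (0.0949), ERL replicate 2 (0.0528) or ERL replicate 3 (0.0505), and with the EGF and cSNX libraries fitted alone (0.0784).

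SPRR1A had 5, 5 and 11 counts in cSNX, or 0.229, 0.209 and 0.401 CPM, and every cSNX library was under every EGF library. Its log2 fold change of -1.22 (SE 0.44) was larger than that of SPRR1B but was not called (edgeR adjusted p = 0.121), except when all 15 libraries were fitted together (0.0454). SPRR3 had 1.01, 0.792 and 1.09 CPM, with 1 of the 3 libraries within the EGF range, and a log2 fold change of 0.50 (SE 0.46, edgeR adjusted p = 0.610). TGM1 had 21.0, 22.0 and 18.0 CPM (log2 fold change 0.08, SE 0.12), CNFN 5.26, 5.30 and 3.87 CPM (-0.13, SE 0.18) and EVPL 106, 143 and 144 CPM (0.09, SE 0.14). For these 3 genes the cSNX and EGF libraries overlapped, and edgeR gave an adjusted p of 0.760 to 0.791.

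Set directly against erlotinib, cSNX1.3 left SPRR1B, SPRR3 and EVPL higher and TGM1 and CNFN lower, so 5 of the 7 members were called, where 56.1% of all genes tested were. The differences were 2.06 on the log2 scale for SPRR1B (SE 0.20, edgeR adjusted p = 3.42e-07), 2.04 for SPRR3 (SE 0.53, adjusted p = 0.00391) and 0.52 for EVPL (SE 0.14, adjusted p = 0.00622). They were -0.68 for TGM1 (SE 0.11, edgeR adjusted p = 0.000102) and -0.67 for CNFN (SE 0.17, adjusted p = 0.00344). Without ERL replicate 3 the difference for SPRR3 was 3.43. IVL, which had fallen with both agents, differed between them by 0.16 (SE 0.13, edgeR adjusted p = 0.310). SPRR1A differed by 1.25 (SE 0.57, adjusted p = 0.0740), which was called only with all 15 libraries in edgeR's fit (0.0375).

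Between the lines, the SPRR genes, IVL and TGM1 were lower with the NLS-mutated receptor, by 2.65-fold to 6.54-fold, and CNFN and EVPL were not called. All 5 called of 7 were lower, where 41.4% of the 15805 genes tested were called and 21.0% were called lower. The median log2 fold change of the 7 was -1.47, against 0.01 for all genes tested. The comparison asks what the nuclear localization sequence of EGFR changes when the receptor is put back into cells with their own EGFR knocked down.

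SPRR3 had the largest fold change of the 7. It had 13.0, 15.5 and 14.0 CPM in shEGFR-WT and 2.25, 1.51 and 2.77 CPM in shEGFR-NLS, and it fell 6.54-fold (log2 fold change -2.71, SE 0.16, edgeR adjusted p = 2.14e-09). With 392 to 505 counts per shEGFR-WT library, it was far better counted here than in the drug experiment. SPRR1B, which carried more RNA per kb than any other member in these lines, had 44.3, 49.2 and 46.5 CPM in shEGFR-WT and 19.1, 14.8 and 14.0 CPM in shEGFR-NLS. It fell 2.91-fold, a log2 fold change of -1.54 (SE 0.10, edgeR adjusted p = 8.07e-09). SPRR1A had 2.61, 2.66 and 2.41 CPM against 1.01, 0.708 and 0.604 CPM and fell by 1.70 on the log2 scale (SE 0.23, edgeR adjusted p = 1.72e-05). The 2 groups were apart for each of these 3 genes.

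IVL had 142, 112 and 145 CPM in shEGFR-WT and 49.4, 45.4 and 49.3 CPM in shEGFR-NLS. It fell 2.77-fold, a log2 fold change of -1.47 (SE 0.091, edgeR adjusted p = 2.88e-09). TGM1, which rose with erlotinib, had 30.7, 34.1 and 33.6 CPM in shEGFR-WT and 13.5, 11.0 and 12.7 CPM in shEGFR-NLS. It fell 2.65-fold (log2 fold change -1.40, SE 0.093, edgeR adjusted p = 6.94e-09). For both genes the groups lay well apart, and all 5 calls held without any single one of the 6 libraries.

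CNFN had 7.04, 4.74 and 5.45 CPM in shEGFR-WT and 6.34, 7.08 and 7.50 CPM in shEGFR-NLS, and the groups overlapped (log2 fold change 0.28, SE 0.14, edgeR adjusted p = 0.132). Without shEGFR-WT replicate 1, its highest library in that group, the value was 0.45 and was called (edgeR, adjusted p = 0.0270). EVPL had 136, 101 and 141 CPM against 116, 113 and 119 CPM, which overlapped as well (log2 fold change -0.12, SE 0.098, edgeR adjusted p = 0.367). Without shEGFR-WT replicate 2, the lowest of these libraries, it was -0.25 and was called (edgeR, adjusted p = 0.00198).

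**Figure D2:**
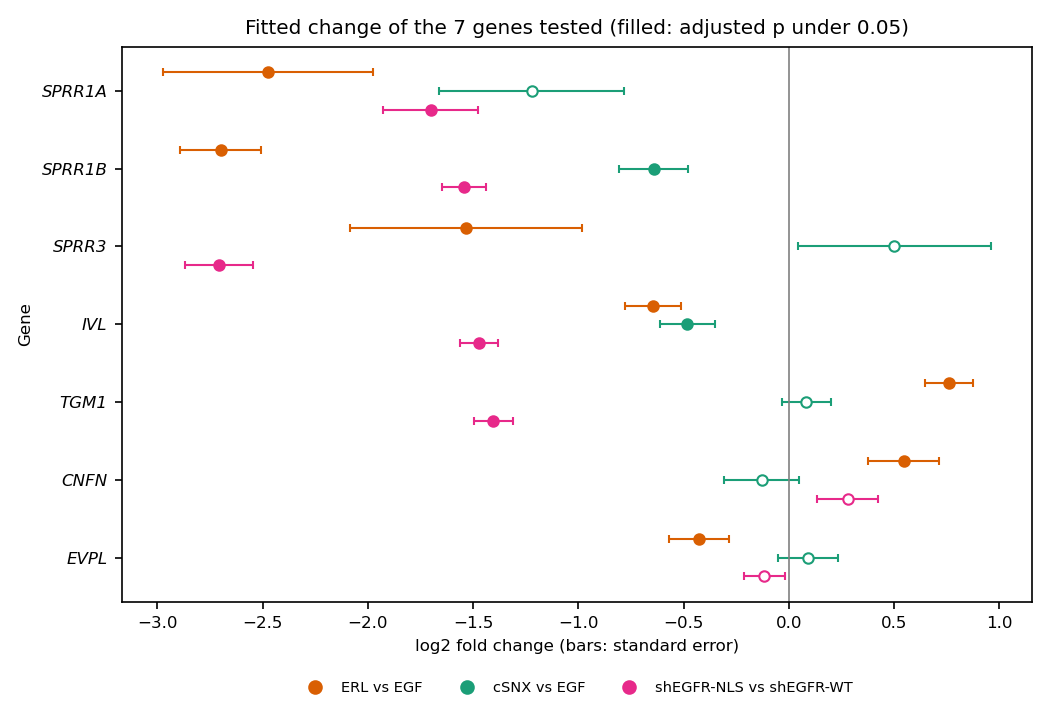
Fitted log2 fold change (x axis) of the 7 members tested (y axis) in the erlotinib, cSNX1.3 and line comparisons, with bars for the SE and filled points for an adjusted p under 0.05. TGM1 lies at 0.76 for ERL and at -1.40 for shEGFR-NLS, SPRR1B is left of 0 and filled in all 3, and the cSNX points of SPRR1A, SPRR3, TGM1, CNFN and EVPL are open.

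The change between the lines and the change with cSNX1.3 were compared in 1 fit of all 15 libraries, in which SPRR2A passed the filter too. The NLS effect was lower than the cSNX1.3 effect for 4 of the 8 members tested, where 23.1% of the 16524 genes in this fit were called in either direction. The difference was -3.20 on the log2 scale for SPRR3 (SE 0.45, edgeR adjusted p = 1.75e-05) and -1.48 for TGM1 (SE 0.15, adjusted p = 2.87e-07). It was -0.99 for IVL (SE 0.17, edgeR adjusted p = 0.000133) and -0.90 for SPRR1B (SE 0.17, adjusted p = 0.000551). SPRR1A (-0.48), SPRR2A (0.39), CNFN (0.41) and EVPL (-0.21) were not called. The 2 effects were measured in different cells, and cell line and experiment cannot be told apart in this difference.

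The order of the 5 groups differed between members. For SPRR1B it was shEGFR-WT (46.6 ± 2.45 CPM), shEGFR-NLS (16.0 ± 2.75), EGF (4.87 ± 0.167), cSNX (3.11 ± 0.0139) and ERL (0.747 ± 0.0684; SD, n = 3 each), and no neighbours overlapped. SPRR1A followed the same order at 2.56 ± 0.134, 0.774 ± 0.210, 0.673 ± 0.104, 0.280 ± 0.106 and 0.119 ± 0.0586 CPM, with overlap between shEGFR-NLS and EGF alone. IVL did so too, at 133 ± 18.7, 48.0 ± 2.30, 28.4 ± 4.17, 20.3 ± 2.82 and 18.0 ± 1.48 CPM, with overlap between cSNX and ERL alone. SPRR3 had 14.1 ± 1.26 CPM in shEGFR-WT and 2.18 ± 0.635 in shEGFR-NLS, then 0.965 ± 0.155 in cSNX, 0.684 ± 0.182 in EGF and 0.229 ± 0.262 in ERL, the last 3 overlapping from one to the next. TGM1 was at 32.8 ± 1.83 CPM in shEGFR-WT and 32.3 ± 3.26 in ERL, which overlapped, then 20.3 ± 2.10 in cSNX and 19.2 ± 2.11 in EGF, which overlapped, and 12.4 ± 1.27 in shEGFR-NLS. CNFN lay between 4.81 ± 0.817 CPM in cSNX and 7.59 ± 1.53 in ERL with overlap between all neighbours. EVPL lay between 91.1 ± 10.8 CPM in ERL and 131 ± 21.5 in cSNX, and only ERL stood apart from the group next to it.

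SPRR2A and SPRR2D, the other cross-bridging genes, were close to the limit of detection. SPRR2A had 8, 12 and 12 counts in EGF, 1, 2 and 5 in cSNX, 5, 2 and 5 in ERL, 9, 17 and 24 in shEGFR-WT and 10, 3 and 4 in shEGFR-NLS. Scaled to CPM, the EGF libraries (0.328 to 0.458) were all above the cSNX (0.0458 to 0.182) and ERL libraries (0.0818 to 0.176), and the shEGFR-WT libraries (0.298 to 0.664) were just above those of shEGFR-NLS (0.0924 to 0.288). SPRR2D had at most 4 counts in any library and 0 in 5 of 15. Of the 50-base words of their transcripts, 34.4% for SPRR2A and 19.4% for SPRR2D are shared with other SPRR2 genes, so their counts are uncertain.

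PPL, the partner of envoplakin, had 0 counts in all 15 libraries, which allows a level of up to 3 counts, or 0.0830 to 0.137 CPM per library (counting error only). EVPL had 1948 to 5093 counts in the same libraries. The genes beside PPL on chromosome 16 were at or near 0 as well. PPL ends a run of 11 adjacent protein-coding genes from MGRN1 through GLYR1 and UBN1 to PPL, from 4616493 to 4960741 (344 kb), with at most 3 counts in any library and 28 counts in all, 20 of them on GLYR1. Past PPL, SEC14L5 had 189 to 505 counts per library, NAGPA 119 to 211 and ALG1 340 to 575. On the other side UBALD1 had 1 to 5 counts, C16orf96 0, CDIP1 0 to 5, HMOX2 38 to 156 and NMRAL1 757 to 1621. SEC14L5 overlaps PPL by 2412 bases on the opposite strand, and strand was not used in counting. These genes were looked up after the value of PPL was seen, and neither DNA copy number nor the counting of this stretch was tested.

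**Figure D3:**
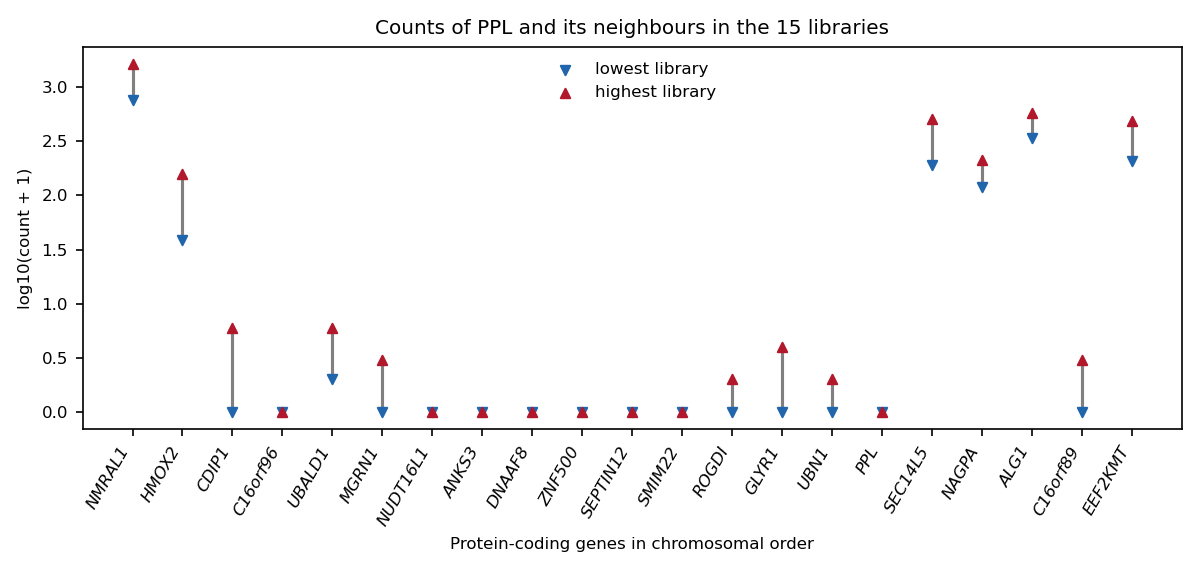
Lowest and highest count over the 15 libraries, as log10(count + 1) on the y axis, for PPL and the protein-coding genes on either side of it in chromosomal order (x axis). The 11 genes from MGRN1 to PPL lie at or under 3 counts, whereas SEC14L5 and NMRAL1 reach 505 and 1621.

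Most of the epidermal differentiation complex gave few or no reads. From S100A10 to S100A1 (chromosome 1, 151982915 to 153632039) the annotation lists 91 genes, 63 of them protein-coding, and 51 of the 91 had at most 3 counts in every library. Outside the members, 21 genes were tested in each experiment. Of all genes tested, 44.0% were called with erlotinib, 6.07% with cSNX1.3 and 41.4% between the lines. The shares called lower were 21.2%, 2.69% and 21.0%. With erlotinib 4 of the 21 were higher and 12 lower, and their median log2 fold change was -0.37. Of these 21 genes 15 were S100 genes, 1 higher and 9 lower, and of the other 6, 3 were higher and 3 lower, with a median of -0.0036. With cSNX1.3, 2 were higher and 1 lower, with a median of 0.04, and between the lines 2 were higher and 14 lower, with a median of -0.44. S100A7A, which encodes an S100 protein, rose with erlotinib (log2 fold change 1.80) and with the mutated receptor (0.91) and fell with cSNX1.3 (-1.24). TCHHL1, a trichohyalin-like gene, rose by 1.41 with erlotinib and fell by 0.81 in shEGFR-NLS. S100A10 fell with erlotinib (-1.13) and in shEGFR-NLS (-0.44) and rose with cSNX1.3 (0.35).

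**Figure D4:**
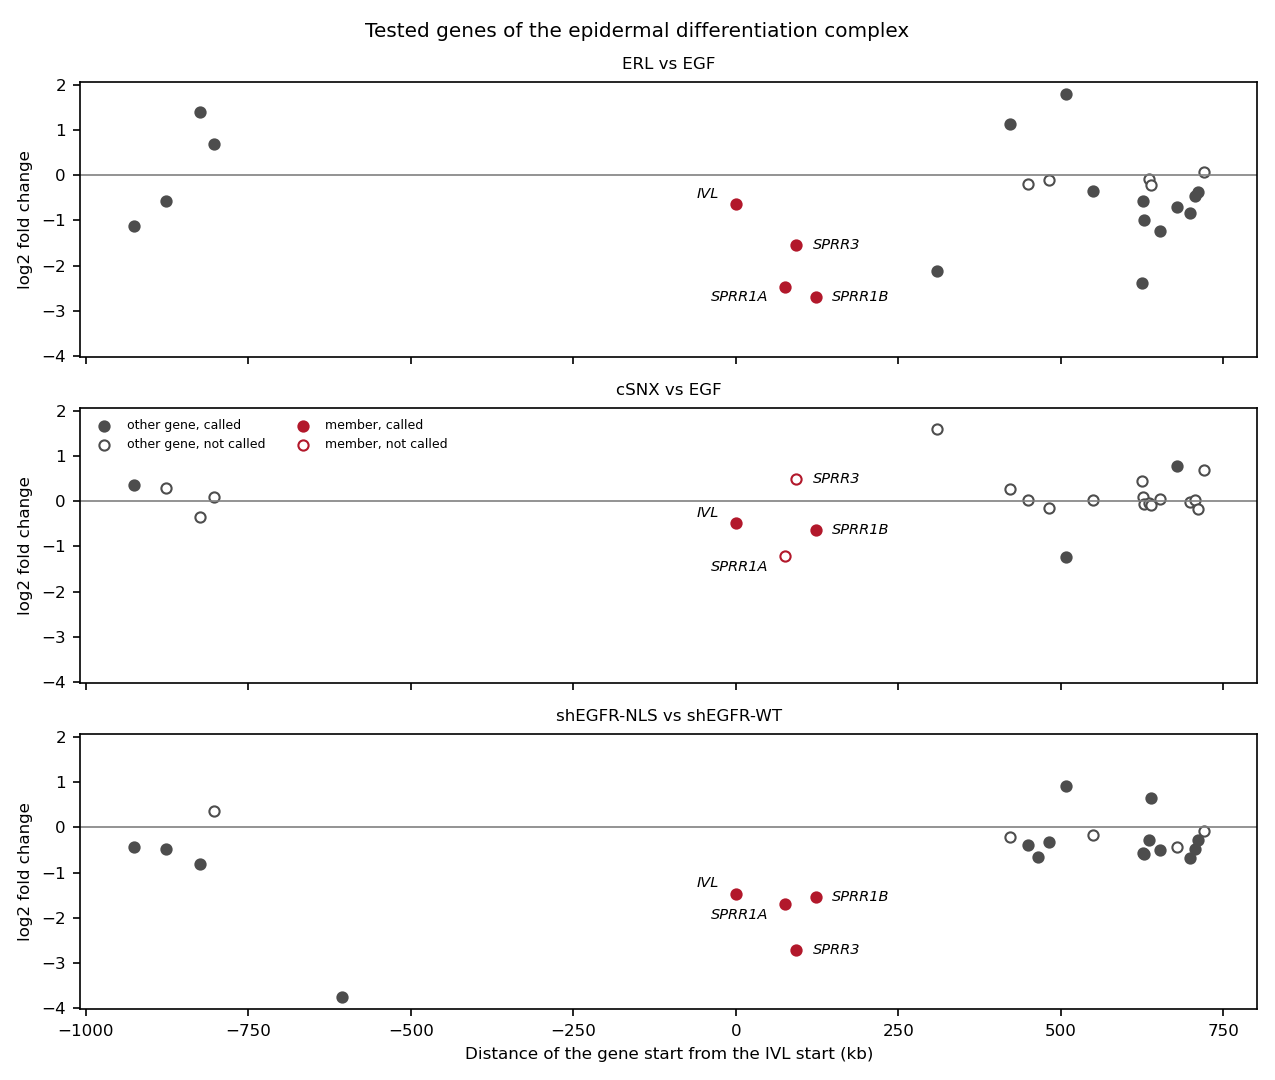
Log2 fold change (y axis) of the tested genes of the epidermal differentiation complex by distance of their start from that of IVL in kb (x axis), in 3 comparisons, with members in red, other genes in grey and called genes filled. IVL and the 3 SPRR genes are all filled and below 0 for ERL and for shEGFR-NLS, and 2 of these 4 are filled for cSNX.

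The same pathway was followed with 5 lists of other genes. For each of the 5 lists, the counts called stand beside the shares of all genes tested. With erlotinib 44.0% of all genes were called and 21.2% were called lower. The shares were 6.07% and 2.69% with cSNX1.3, and 41.4% and 21.0% between the lines. Of 42 other cornified envelope genes, 11 were tested in the drug experiment and 12 between the lines. With erlotinib 3 were higher and 5 lower (median log2 fold change -0.22), among them TGM2, a tissue transglutaminase, which fell from 5.18 to 0.857 CPM (-2.58), and SCEL, the envelope precursor sciellin (-2.22). SBSN, or suprabasin, fell by 1.86. With cSNX1.3 the 3 called genes were all higher, namely TGM2 (1.99), TGM5, a further transglutaminase (1.51), and SCEL (0.84), and the median was 0.14. Between the lines 1 was higher and 8 lower (median -0.79). FLG, the filament-binding protein filaggrin, fell furthest, with 70 to 96 counts per library in shEGFR-WT and 4 to 7 in shEGFR-NLS (-3.75). It passed the filter on low counts only through shEGFR-WT, which favoured a lower value, and was not tested in the drug experiment. SCEL (-2.37) and TGM2 (-2.26) fell too.

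Desmosomes, the junctions to which the envelope is anchored, were covered by 14 genes, of which 12 were tested in the drug experiment and 11 between the lines. With erlotinib 6 were higher and 3 lower (median log2 fold change 0.26), and DSC3, a desmocollin, rose from 37.6 to 86.0 CPM (1.20). PERP, a membrane protein of desmosomes, rose by 0.70 with erlotinib and fell by 0.98 in shEGFR-NLS. With cSNX1.3, 2 were called, both higher (median 0.07). Of these DSG2 rose by 0.33, whereas DSG3 had at most 3 counts in every EGF library and 13 to 19 in the cSNX libraries. DSG3 passed the filter on low counts only through cSNX, which favoured a higher value. Between the lines 1 was higher and 6 lower (median -0.20).

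Of 24 epidermal barrier enzymes and inhibitors, 15 were tested in the drug experiment and 14 between the lines. With erlotinib 2 were higher and 9 lower (median log2 fold change -0.49). With cSNX1.3 the 4 called were all higher (median 0.04), and between the lines the 12 called were all lower (median -0.70). SERPINB4, a serine protease inhibitor, had 6.38 CPM in EGF, 30.0 in cSNX and 0.897 in ERL, log2 fold changes of 2.23 and -2.80, and fell by 1.83 in shEGFR-NLS. SERPINB3 changed by 2.28 with cSNX1.3 and -3.14 with erlotinib, and as these neighbours are near-identical the counting may have mixed their reads. KLK6, a secreted serine protease, fell from 398 to 137 CPM with erlotinib (-1.53) and from 662 to 178 CPM in shEGFR-NLS (-1.89). SERPINB5, or maspin, fell with erlotinib (-1.29) and in shEGFR-NLS (-1.91) and rose with cSNX1.3 (0.73).

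Of 24 regulators of keratinocyte differentiation, 23 were tested in each experiment. With erlotinib 13 were higher and 3 lower (median log2 fold change 0.40), with cSNX1.3 1 was higher and 3 lower (median 0.02), and between the lines 6 were higher and 11 lower (median -0.20). GRHL3, a transcription factor of the epidermal barrier, had 2.97 CPM in EGF, 9.22 in ERL and 1.08 in cSNX, log2 fold changes of 1.64 and -1.46. ZNF750, a factor of late differentiation, rose by 1.12 with erlotinib and fell 2.01-fold with cSNX1.3, and CEBPA, a further differentiation factor, fell by 0.64 with cSNX1.3. TP63, the master factor of stratified epithelia, fell by 1.10 in shEGFR-NLS, and KLF5 fell by 0.87. KLF4 rose by 0.53 with cSNX1.3 and fell by 0.67 in shEGFR-NLS.

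Of 17 squamous stage markers, 16 were tested in each experiment. With erlotinib 2 were higher and 10 lower (median log2 fold change -0.63), with cSNX1.3 6 were higher and 1 lower (median 0.24), and between the lines 1 was higher and 11 lower (median -0.50). KRT6A, a keratin of activated keratinocytes, had 647 CPM in EGF, 30.8 in ERL (-4.38) and 1267 in cSNX (0.97), and fell by 1.87 in shEGFR-NLS. KRT6B changed by -3.14 and 0.94 with erlotinib and cSNX1.3 and was not called between the lines (-0.22). Whether the counting mixed reads of KRT6A and KRT6B was not tested. KRT13, a keratin of mucosal layers, fell with erlotinib (-2.67) and in shEGFR-NLS (-3.02). KRT10, a keratin of the layers above the basal one, fell by 1.45 in shEGFR-NLS. KRT1, its partner, had 12 to 22 counts in EGF and at most 2 in ERL. KRT14, a keratin of the basal layer, was the marker called lower with cSNX1.3. Its log2 fold change was -0.45 with that peptide and -0.72 with erlotinib. Other markers of the basal layer did not fall with it. ITGB4 (0.77), ITGA6 (0.66) and COL17A1 (1.03) were called higher with cSNX1.3, and KRT5 (0.33), KRT15 (-0.09) and DST (0.54) were not called. The call of COL17A1 held in 1 of the 9 fits lacking 1 library. The 2 markers called higher with erlotinib were KRT15 (0.58) and KRT16 (0.50), and neither was called with cSNX1.3. Between the lines KRT16 fell by 1.16 and KRT15 was not called. KRT5, KRT14, KRT15, KRT16, ITGA6 and DST were named here after their values were seen.

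**Figure D5:**
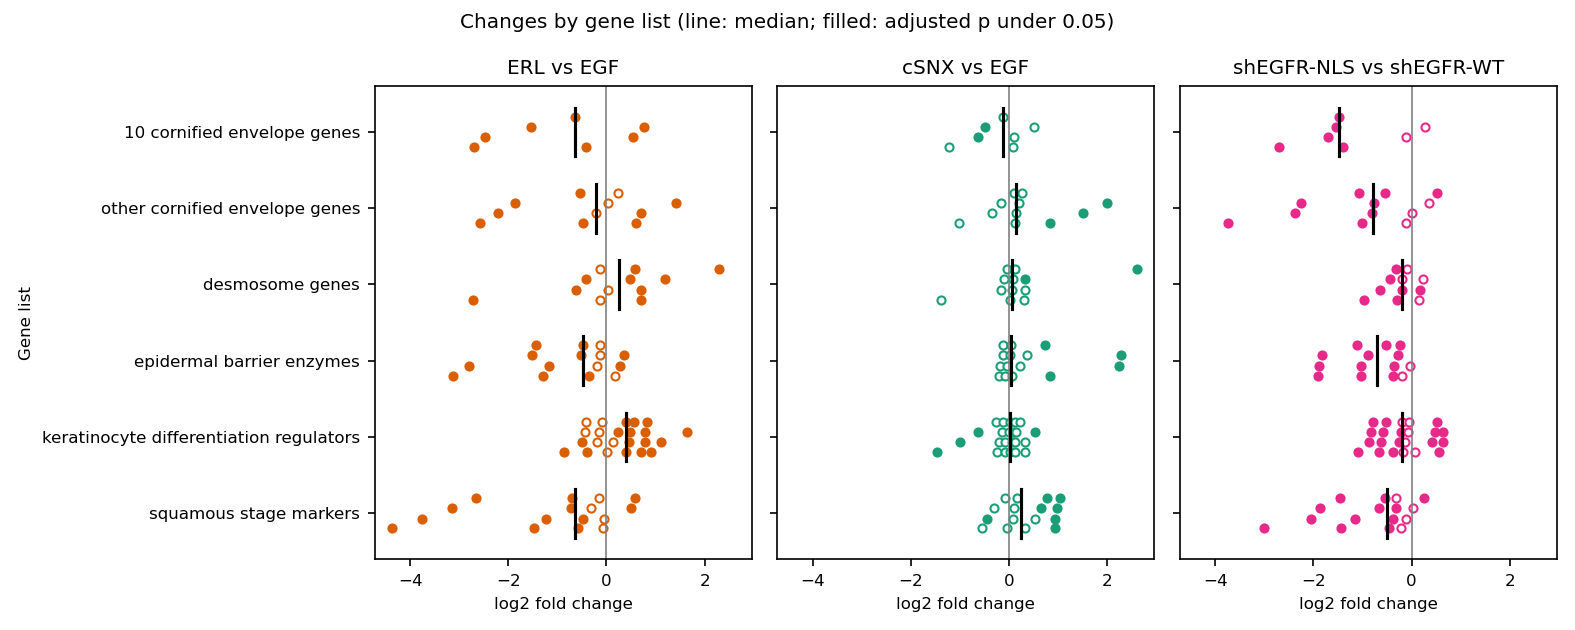
Log2 fold change (x axis) of each tested gene of the members and of the 5 other lists (y axis) in 3 comparisons, with called genes filled and a black line at the median of each list. The members' median lies at -0.65 for ERL, -0.13 for cSNX and -1.47 for shEGFR-NLS, and the regulators' median for ERL lies at 0.40.

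Over the 15 libraries, the genes whose log2 CPM was most like the mean standardized level of the 7 tested members, out of 13396 genes ranked, were COL5A2 (Pearson r = 0.958), PPP1R1C (0.956), ANKFY1 (0.952), MUCL1 (0.951) and LMO7 (0.949). COL5A2, a fibrillar collagen chain, had 223 ± 19.7 CPM in shEGFR-WT, 61.7 ± 2.91 in shEGFR-NLS, 61.0 ± 7.22 in EGF, 45.6 ± 2.44 in cSNX and 28.9 ± 2.31 in ERL (SD, n = 3 each). LMO7, a protein of cell junctions, ran from 145 ± 12.9 CPM in shEGFR-WT to 29.9 ± 3.17 in ERL, and ANKFY1 from 83.6 to 56.4 CPM. MUCL1 averaged 9.15 CPM in shEGFR-WT, 0.689 in shEGFR-NLS, 0.182 in EGF, 0.251 in cSNX and 0.196 in ERL. PPP1R1C averaged 4.92, 0.984, 0.397, 0.506 and 0.134 CPM in the same order. Both genes were therefore scarce outside shEGFR-WT, and how far their r rests on that group was not tested. Of the 6 members with a mean of at least 1 CPM, IVL was closest to the mean of the 7 (r = 0.974), followed by SPRR3 (0.937) and SPRR1B (0.896), whereas EVPL (0.479), TGM1 (0.152) and CNFN (0.0319) were not close to it. These are descriptions over libraries that share groups, cell lines and experiments, and the members are part of the mean they are set against.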

How the data were processed

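RNA of 15 libraries, 3 per group, was followed, with groups taken from the sample labels and none left out. According to the methods, the authors trimmed reads with TrimGalore, aligned them to GRCh38 with STAR and counted read pairs per gene with featureCounts, ignoring strand, and the deposited values are raw counts, which were checked to be whole numbers. DESeq2 was the authors' test. Of 61552 gene IDs, 61399 matched GENCODE 44.

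Here edgeR 4.0.16 in R 4.3.3 (TMM, filterByExpr, robust quasi-likelihood test, Benjamini-Hochberg threshold 0.05) was fitted to the 9 drug libraries, the 6 line libraries and, for the difference of effects, all 15. Standard errors were taken as the log2 fold change over the square root of F. In counts simulated for the erlotinib comparison (15738 genes), 65 of 66 genes changed 4-fold and 53 of 67 changed 2-fold were recovered, and 8 of 160 calls were false. For the cSNX1.3 comparison (15738 genes) these values were 65 of 66, 51 of 67 and 7 of 155, and for the lines (15805 genes) 64 of 66, 56 of 67 and 11 of 174. The simulations changed 66 or 67 genes per fold change, took the spread from the fitted trend and held no outlying libraries. In the data 44.0% of genes were called with erlotinib, so these rates may not hold there. CPM per kb used the union of exons. Correlations used a prior count of 2.

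The members and lists were chosen with earlier results of these data known. Named are the members, EGFR, the 5 genes most alike, and of each list and of the complex up to 5 called genes with the largest changes. Lists were the other envelope genes, desmosome genes, barrier enzymes, differentiation regulators, squamous stage markers and cell type markers. Alternatives were DESeq2 1.42.0, its size factors, other count filters, other sets of libraries, the replicate number as a block and leaving out each library.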

Additional observations from a re-analysis of the deposited data

Results flagged for a closer look

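For 4 members the difference between the shEGFR-NLS effect (against shEGFR-WT) and the cSNX1.3 effect (against EGF) passed edgeR's Benjamini-Hochberg threshold as an interaction over 15 libraries. The differences on the log2 scale were -3.20 for SPRR3, -1.48 for TGM1, -0.99 for IVL and -0.90 for SPRR1B. SPRR3 had a log2 fold change of -2.71 between the lines and 0.50 (not called) with cSNX1.3, and TGM1 had -1.40 and 0.08 (not called). IVL (-1.47 and -0.48) and SPRR1B (-1.54 and -0.64) were called lower in both comparisons, by more between the lines. The called members were not tested against those not called. Cell line and experiment cannot be told apart in these differences.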

How the results depend on the processing

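Between the lines, the 5 calls among the members, and the 4 in the difference of effects, kept their direction and their side of the threshold under every alternative in which the gene was tested, including leaving out each library. With a filter of 10 counts or more in each library, SPRR3 was not tested for the difference of effects, and the other 3 calls were kept. The drug comparisons were less stable. Of the members, 5 were called lower with erlotinib, but 3 with a filter of 10 counts or more in each library, which left 5 members to test. With cSNX1.3, 2 were called lower, but 1 with the EGF and cSNX libraries fitted alone and 1 with the replicate number as a block, where SPRR1B lost its call (edgeR, adjusted p = 0.0520). The replicate block changed the call of no other member in any comparison. Same-numbered libraries did not deviate together (correlations of -0.200 to 0.248 over the pairs), so the numbers were not taken to pair the libraries. Differently numbered libraries ran more widely, from -0.324 (EGF replicate 2 with cSNX replicate 3) to 0.375 (EGF replicate 2 with cSNX replicate 1). Leaving out each library in turn gave 3 to 6 members lower and 1 to 2 higher with erlotinib, 0 to 2 lower with cSNX1.3, and 5 to 6 lower and 0 to 1 higher between the lines. The cause of these changes was not tested. Values that changed sign were never called, namely cSNX vs. EGF for CNFN without cSNX replicate 3 (0.010, where the fits lacking 1 library ran from -0.22) and for EVPL without EGF replicate 2 (-0.050, up to 0.22), and the difference of effects for SPRR2A without shEGFR-NLS replicate 1 (-0.20, up to 1.09).

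Over all genes, the cSNX1.3 comparison called 956, but 526 without cSNX replicate 2, 531 without EGF replicate 1, 592 without EGF replicate 3 and 1444 with all 15 libraries. With cSNX1.3, edgeR's adjusted p of DSG2 passed 0.05 without cSNX replicates 1, 2 or 3 or EGF replicates 1 or 3 (up to 0.121) and with no count filter (0.0503), that of S100A10 without cSNX replicates 1 or 2 or EGF replicates 1 or 3 (up to 0.152), and that of KRT6B without EGF replicate 1 (0.0546). Lacking 1 library, the fits called 0 to 2 barrier enzymes higher with erlotinib, 1 to 3 desmosome genes, 3 to 6 squamous stage markers and 0 to 2 other genes of the complex higher and 0 to 1 squamous stage markers lower with cSNX1.3, and 0 to 1 desmosome genes and 0 to 1 squamous stage markers higher between the lines. DESeq2's size factors moved the median of all genes by less than 0.1 on the log2 scale in each comparison. Low counts limit SPRR1A, SPRR2A, SPRR2D and, in the drug experiment, SPRR3. Intervals for counting error do not cover differences between cultures.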
